A study of Mus musculus with 6 samples.

Results

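The genes described here are 9 members of the machinery that writes, erases and reads DNA methylation: the DNA methyltransferases Dnmt1, Dnmt3a and Dnmt3b, the Dnmt1 cofactor Uhrf1, the dioxygenases Tet1, Tet2 and Tet3, and the methyl-CpG binding proteins Mbd1 and Mbd2. They were taken by symbol from an RNA-Seq expression table of 19730 rows, in which each of the 9 symbols had its own row. Rows were matched by symbol and not by their values, but the genes were chosen with earlier results of these data known. The table covers primary mouse mesangial cells, cells that hold the capillary loops of the kidney glomerulus together, at passages 3 to 6 in high-glucose medium (25.5 mM) with 20% foetal bovine serum, and both groups shared this medium. The 3 TGF-β1 libraries came from cells given 10 ng/ml transforming growth factor beta 1 for 72 h, and the 3 Control libraries from cells without it. Strain, sex and the number of donor animals were not given in the sources used here, nor was it said whether the libraries of a group came from separate cultures, so p-values measure only the spread between these libraries, which may be technical. Whether genome methylation differed was not analysed here, and all values below are RNA levels.

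In mammals, DNA methylation sits mainly on the cytosine of CG dinucleotides. Dnmt3a and Dnmt3b place new marks, while Dnmt1, guided by Uhrf1 to half-methylated DNA behind the replication fork, copies existing ones to the new strand. The Tet enzymes oxidise methylcytosine to hydroxymethylcytosine and further, using oxygen, iron and 2-oxoglutarate, and the oxidised bases are either diluted at replication or cut out by base excision repair. Some proteins with a methyl-CpG binding domain recognise the mark and recruit corepressors.

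Expression is given as FPKM, fragments per unit of transcript length and of library depth. This unit is corrected for length, so levels of different genes can be compared. The steps between the lowest values put depth at 10.1 to 11.1 M fragments per library, if fragments were 200 nt long. Deviations from the group means were correlated between the replicate 2 libraries of the 2 groups (Pearson's r = 0.232 across genes, against at most 0.117 for any other pair of libraries across the groups). Of 5 mesangial and pericyte markers tested, Acta2, Tagln and Vim rose with TGF-β1, Pdgfrb fell and Gata3 was not called, whereas the mesangial marker Itga8 stayed at or below 0.174 FPKM in every library. Of the other markers under the filter, the pericyte marker Cspg4 rose from 0.0735 to 1.21 FPKM, and Des and Thy1 were not called. The kidney epithelial cadherin Cdh16 averaged 129.7 FPKM in Control and 6.30 in TGF-β1. Of the other tubular markers with a row, Krt18 rose from 0.279 to 1.57 FPKM in the fit without the filter, and Cdh1 and Krt8 were not called. The summed macrophage markers lay at 8.19 to 9.58 FPKM in Control and 2.26 to 3.24 in TGF-β1, of which Csf1r fell and Cd68 was not called. The pan-leukocyte marker Ptprc stayed at or below 0.0448 FPKM. The summed podocyte markers lay at 19.7 to 24.9 FPKM in Control and 12.6 to 13.7 in TGF-β1, and all 3 tested, Wt1, Synpo and Podxl, fell. As background for the tested markers, 48.1% of all tested rows were called and 23.6% were called lower. None of the 5 endothelial markers reached a mean of 1 FPKM. In bulk RNA, fewer cells of a type and less RNA per cell cannot be told apart, and the part of these marker shifts in the results below was not tested.

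All 9 genes had a lower mean with TGF-β1. Of the 7 abundant enough for the reported fit, Mbd1 and Tet2 passed the test, and of the 2 scarcer ones, read from a fit without the filter, Tet1 passed. In that second fit Tet2 missed the threshold (adjusted p = 0.0508). The methyl-CpG reader Mbd1 fell to 0.578 of its Control level, Tet2 to 0.573 and Tet1 to 0.271. The methyltransferases, Uhrf1, Tet3 and Mbd2 did not pass. Testing was by limma on log2(FPKM + 1) with Benjamini-Hochberg adjustment over all rows with a mean of at least 1 FPKM, and an adjusted p under 0.05 was called changed. A log2 change on this scale understates the change of low genes. Of the 9 genes, 7 passed the filter and 2 of these, Mbd1 and Tet2, were called, both lower. Among all 11898 tested rows, 48.1% were called and 23.6% were called lower, so changed genes were no more frequent here than in the table at large. The median log2 change of the 7 was -0.15, against -0.02 over all tested rows. Tet1 and Dnmt3b had means under 1 FPKM and were read from the same fit without the filter, in which 16.0% of rows were called lower. Values of the 2 groups did not overlap, with TGF-β1 the lower, for 4 of the 7 tested genes, against 29.5% of all tested rows. These were Mbd1, Tet2, Dnmt1 and Dnmt3a, and for Dnmt1 and Dnmt3a, neither called, the gap was small. The direction depended in part on scaling. Dividing by the summed FPKM of protein-coding rows, a scaling chosen after the data were seen, moved the median of all tested rows by -0.17 and turned 2911 higher and 2810 lower calls into 2015 higher and 3927 lower. Under that scaling Dnmt1 (log2 change -0.36, adjusted p = 0.0470), Dnmt3a (-0.30, adjusted p = 0.0495) and Tet3 (-0.30, adjusted p = 0.0467) were also called, as was Dnmt3b in the fit without the filter (-0.54, adjusted p = 0.0395). Quantile normalization put Dnmt3a, Tet3 and Uhrf1 at or slightly above no change.

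**Figure D1:**
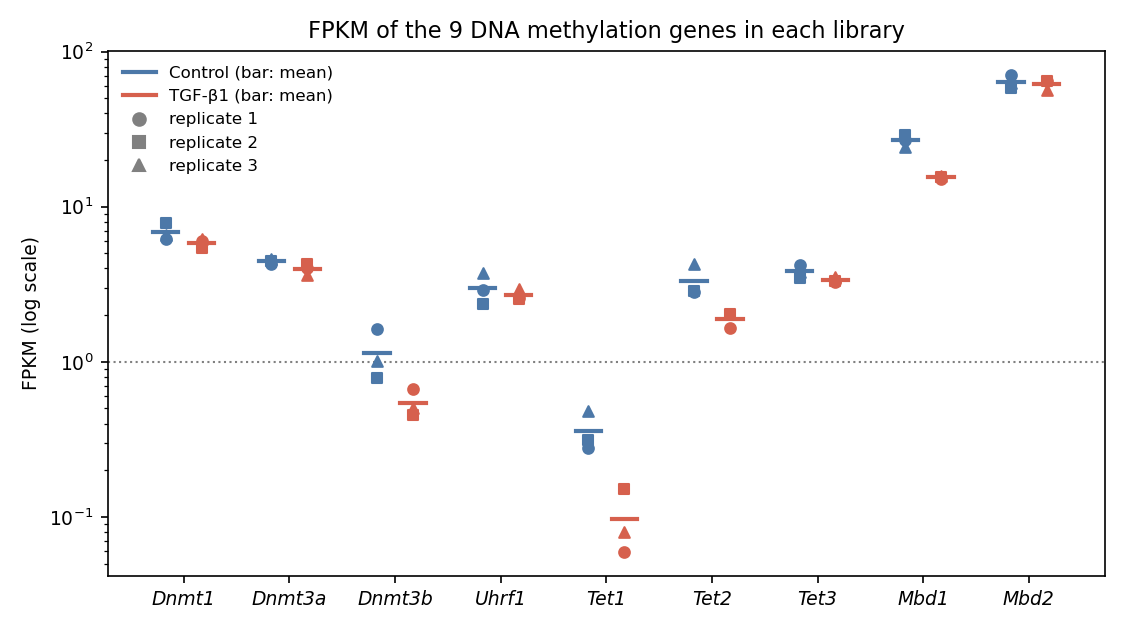
FPKM of each gene in each library on a log axis, with Control in blue and TGF-β1 in red and a bar at each group mean. The dotted line marks the filter of 1 FPKM. Mbd1 (Control 24.2 to 29.1, TGF-β1 15.2 to 15.8) and Tet1 (Control 0.277 to 0.481, TGF-β1 0.0595 to 0.150) lie apart between groups, and the ranges of Mbd2, the most abundant, overlap.

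The genes spanned a wide range of abundance. In Control, mean FPKM ran in the order Mbd2, Mbd1, Dnmt1, Dnmt3a, Tet3, Tet2, Uhrf1, Dnmt3b and Tet1. The Control ranges of Tet3 and Tet2 overlapped, as did those of Tet2 and Uhrf1, and differences between genes were not tested. Within libraries of both groups, Tet3 stood above Tet2 in 5 of 6, and Tet2 above Uhrf1 in 2 of 6. With TGF-β1 the order was the same except that Uhrf1 stood above Tet2, and there no neighbouring ranges overlapped. Maintenance methyltransferase RNA was the most abundant of the 3 Dnmt genes in all 6 libraries, and Tet1 was the lowest of the 9 in all 6.

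Dnmt1, the maintenance methyltransferase, lies on the minus strand of chromosome 9 (mm9 chr9:20711650-20757317), where no other annotated gene overlaps it. Control libraries 1 to 3 held 6.15, 7.80 and 6.56 FPKM and TGF-β1 libraries 6.03, 5.42 and 6.15. The lowest Control and the highest TGF-β1 value were all but equal, and Control 2 stood above the rest. The means were 6.84 ± 0.859 and 5.87 ± 0.392 (SD, n = 3 each). On the log2 scale this was a change of -0.19 with a 95% interval of -0.45 to 0.08 and an adjusted p of 0.206.

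Dnmt3a, a de novo methyltransferase, is on the plus strand (mm9 chr12:3806007-3914443). Its row carries the identifier of a retained-intron transcript, 1 of 18 annotated for the gene, and whether the value belongs to the gene or to that transcript is not stated. Short genes on the opposite strand also overlap it, and whether reads were assigned by strand is not stated. Control libraries held 4.30, 4.50 and 4.57 FPKM and TGF-β1 libraries 4.02, 4.25 and 3.61. Every TGF-β1 value lay below every Control value, but by little. With an adjusted p of 0.261, the log2 change of -0.14 (95% interval -0.37 to 0.09) was not called.

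Dnmt3b, the other de novo enzyme (plus strand, mm9 chr2:153475186-153513466), was scarcer. It is overlapped by 7530422B04Rik on the opposite strand. Control libraries held 1.63, 0.792 and 1.01 FPKM and TGF-β1 libraries 0.666, 0.456 and 0.507. The groups did not overlap, and Control 1 stood well above the other 2 Control libraries. The TGF-β1 mean was 0.475 of Control, and in the fit without the filter the log2 change was -0.46 (95% interval -0.85 to -0.07). The adjusted p of 0.0791 missed the threshold, with an unadjusted limma p of 0.0280. These levels rest on roughly 35 to 72 fragments in Control and 18.5 to 29.3 in TGF-β1, so the depth leaves a wide error.

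Uhrf1 encodes the ubiquitin ligase that binds half-methylated CG sites and brings Dnmt1 to them (plus strand, mm9 chr17:56442744-56462909). Its values were 2.92, 2.36 and 3.73 FPKM in Control and 2.56, 2.54 and 2.95 in TGF-β1. The TGF-β1 range fell inside the Control range. Its log2 change was -0.11 (95% interval -0.47 to 0.26) with an adjusted p of 0.589. The Uhrf1 to Dnmt1 ratio had nearly equal means, 0.448 in Control and 0.458 in TGF-β1.

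Dnmt1 and Uhrf1 act at the replication fork, and S-phase genes are known to be driven through E2F sites, so promoter windows of both were searched for them. The sequences are from RefSeq on GRCm38.p6, a later build than the mm9 positions above, each with 250 bases before and 50 after an annotated start, 5′ to 3′ on the gene's strand. Capitals mark a match to TTTCCCGC, TTTGGCGC or TTTCGCGC on either strand. Dnmt1 has 3 such windows and Uhrf1 has 2, and the ones that hold a match are shown, at chr9:20952574-20952873 (minus strand) and chr17:56304063-56304362 (plus strand).
Dnmt1: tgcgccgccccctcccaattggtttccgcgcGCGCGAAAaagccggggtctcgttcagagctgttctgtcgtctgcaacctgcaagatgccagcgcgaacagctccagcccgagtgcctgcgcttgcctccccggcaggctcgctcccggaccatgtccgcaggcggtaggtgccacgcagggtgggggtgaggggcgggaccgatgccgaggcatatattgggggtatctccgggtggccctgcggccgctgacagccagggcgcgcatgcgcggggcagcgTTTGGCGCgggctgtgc
Uhrf1: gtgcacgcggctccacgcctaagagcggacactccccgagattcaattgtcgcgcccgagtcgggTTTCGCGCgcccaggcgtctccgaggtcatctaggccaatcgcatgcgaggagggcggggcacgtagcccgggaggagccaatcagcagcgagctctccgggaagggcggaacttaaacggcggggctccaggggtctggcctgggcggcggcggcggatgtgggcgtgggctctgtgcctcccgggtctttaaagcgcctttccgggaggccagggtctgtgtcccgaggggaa
Both windows held TTTCGCGC, present in 0.323% of 32851 promoter windows, and that of Dnmt1 also held TTTGGCGC, present in 0.514%. Any of the 3 motifs was present in 1.84%. The motifs contain CG, and the windows shown each held 33 CG dinucleotides, as many as 8.56% of windows hold. Shares among windows of like CG content were not computed. The shares are also per window, whereas Dnmt1 has 3 windows and Uhrf1 has 2. None of the promoter windows of Dnmt3a, Dnmt3b, Tet1, Tet2 or Tet3 held one. A match of letters describes the sequence and is not evidence that a factor bound there.

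Tet1, the first of the methylcytosine dioxygenases, fell the most as a proportion. The gene is on the minus strand (mm9 chr10:62267318-62361866), and a U6 small RNA gene lies inside it on the same strand. Control libraries held 0.277, 0.313 and 0.481 FPKM and TGF-β1 libraries 0.0595, 0.150 and 0.0805. The highest TGF-β1 library was below the lowest Control library. The means were 0.357 ± 0.109 and 0.0967 ± 0.0475 FPKM (SD, n = 3 each). In fragments, assuming the 13986 nt transcript, this is about 42.3, 47.6 and 71.5 in Control against 9.0 to 21.0 in TGF-β1. The log2 change, from the fit without the filter, was -0.31 (95% interval -0.49 to -0.12) with an adjusted p of 0.0256. The adjusted p rose to 0.0571 without Control 2, 0.0879 without TGF-β1 1 and 0.0820 without TGF-β1 3. It was 0.0995 after quantile normalization and 0.1001 with replicates 1 and 3 alone.

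Tet2 is on the minus strand (mm9 chr3:133126643-133207354) with no overlapping gene. Control libraries held 2.81, 2.87 and 4.29 FPKM and TGF-β1 libraries 1.66, 2.02 and 2.03. The groups did not overlap, and Control 3 stood above the other 2 Control libraries. The means were 3.32 ± 0.839 and 1.90 ± 0.214 FPKM (SD, n = 3 each). The log2 change was -0.56 (95% interval -0.95 to -0.17) with an adjusted p of 0.0293. The adjusted p rose to 0.0907, 0.0550 and 0.0616 without TGF-β1 1, 2 and 3 in turn, to 0.0508 with no filter on low values, to 0.0767 with replicates 1 and 3 alone and to 0.116 after quantile normalization.

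Tet3 (minus strand, mm9 chr6:83312367-83391672) was the most abundant of the 3 in all TGF-β1 libraries. Control libraries held 4.24, 3.48 and 3.81 FPKM and TGF-β1 libraries 3.27, 3.31 and 3.53. The ranges overlapped, with Control 2 below TGF-β1 3. The log2 change was -0.15 (95% interval -0.39 to 0.10) with an adjusted p of 0.275.

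The promoter windows of Tet1 and Tet2, the Tet genes that passed the test, differed widely in CG content. Both are RefSeq sequences on GRCm38.p6, minus strand, from chr10:62887275-62887574 for Tet1 and chr3:133544341-133544640 for Tet2, with every CG in capitals.
Tet1: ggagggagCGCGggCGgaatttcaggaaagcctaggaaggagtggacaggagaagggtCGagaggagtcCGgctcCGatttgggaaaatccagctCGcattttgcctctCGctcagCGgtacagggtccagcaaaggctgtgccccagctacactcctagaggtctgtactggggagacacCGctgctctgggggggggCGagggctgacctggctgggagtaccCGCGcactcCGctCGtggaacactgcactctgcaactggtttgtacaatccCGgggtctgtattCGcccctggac
Tet2: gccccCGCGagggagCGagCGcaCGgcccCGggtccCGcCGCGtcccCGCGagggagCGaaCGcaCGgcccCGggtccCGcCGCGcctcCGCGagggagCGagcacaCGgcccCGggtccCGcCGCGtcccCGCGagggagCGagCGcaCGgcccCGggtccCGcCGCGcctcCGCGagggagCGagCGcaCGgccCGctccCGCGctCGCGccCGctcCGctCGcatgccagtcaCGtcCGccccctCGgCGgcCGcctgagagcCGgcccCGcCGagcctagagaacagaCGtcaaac
The Tet2 window held 57 CG dinucleotides at 81.3% GC, and 0.152% of promoter windows hold as many. The Tet1 window held 17 at 61.7% GC, and 31.4% of windows hold as many. The Tet3 window held 22, and the median over all windows was 7. All 3 Tet windows held the GC box GGGCGG on at least 1 strand, as do 35.7% of windows. None of the windows of the 7 genes matched held CAGACA, a motif bound by SMAD proteins, the factors that TGF-β1 receptors activate, against 21.0% of all windows. No promoter sequence is printed for Mbd1 or Mbd2.

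Mbd1, a reader with a methyl-CpG binding domain and CXXC zinc fingers, gave the clearest difference of the 9. The gene is on the plus strand of chromosome 18 (mm9 chr18:74427926-74442339) with no overlapping gene. Control libraries held 27.1, 29.1 and 24.2 FPKM and TGF-β1 libraries 15.2, 15.5 and 15.8. The TGF-β1 libraries were tightly grouped and far below Control. The means were 26.8 ± 2.43 and 15.5 ± 0.302 FPKM (SD, n = 3 each). The log2 change was -0.75 (95% interval -0.96 to -0.54) with an adjusted p of 8.92e-04. It was called under all 19 alternatives run, with adjusted p from 3.79e-04 to 0.0143.

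Mbd2, a reader that recruits the NuRD deacetylase complex, lies on the same chromosome and strand (mm9 chr18:70727843-70785785). Its values were 71.1, 58.4 and 62.7 FPKM in Control and 65.0, 64.2 and 56.9 in TGF-β1. The ranges overlapped, and 2 of the 3 TGF-β1 libraries lay inside the Control range. The log2 change was -0.04 (95% interval -0.29 to 0.20) with an adjusted p of 0.748. Its sign turned without Control 1 and without TGF-β1 3.

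**Figure D2:**
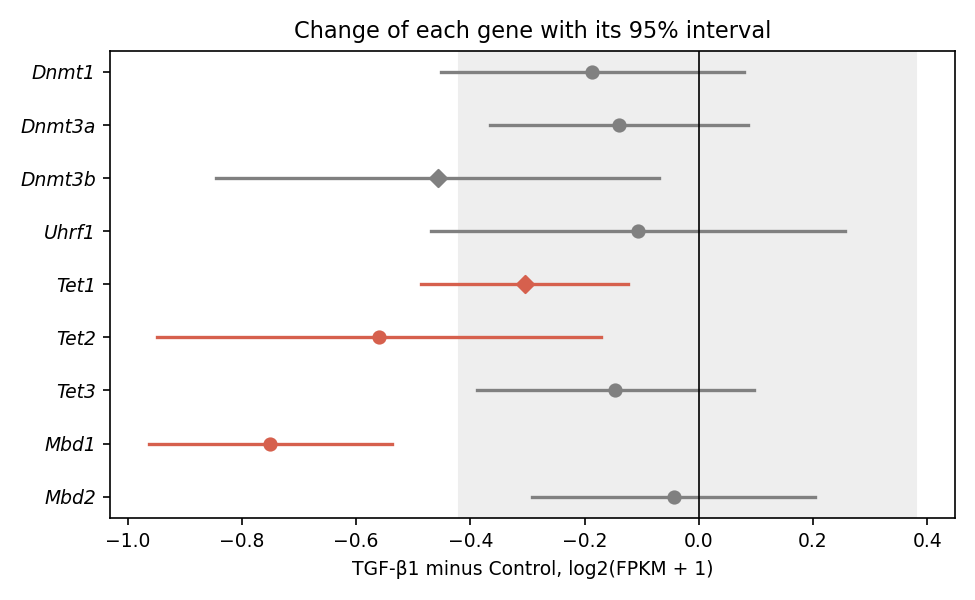
Log2 change (TGF-β1 minus Control, log2(FPKM + 1)) of each gene with its 95% interval, in red where the adjusted p was under 0.05 and grey otherwise. Diamonds are Tet1 and Dnmt3b from the fit without the filter, and the grey band spans the quartiles of all tested rows (-0.42 to 0.38). Mbd1, Tet2 and Tet1 are red, and Tet1 lies inside the band on this scale.

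Summed levels show what the single genes add up to. The 3 Dnmt genes together came to 12.1, 13.1 and 12.1 FPKM in Control and 10.7, 10.1 and 10.3 in TGF-β1. The 3 Tet genes together came to 7.32, 6.66 and 8.58 FPKM in Control and 4.99, 5.48 and 5.64 in TGF-β1. Neither sum overlapped between groups. The ratio of the Tet sum to the Dnmt sum did overlap, with 0.606, 0.509 and 0.707 in Control against 0.465, 0.541 and 0.549. Tet2 made up 43.8% of the Tet sum in Control on average and 35.3% in TGF-β1, and Tet3 made up 51.5% and 62.9%. The Mbd1 to Mbd2 ratio was 0.381, 0.498 and 0.386 in Control and 0.233, 0.242 and 0.277 in TGF-β1. A ratio within a library does not depend on its scaling, and that ratio and the Tet2 to Tet3 ratio did not overlap between groups. These sums and ratios are descriptions with no test.

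**Figure D3:**
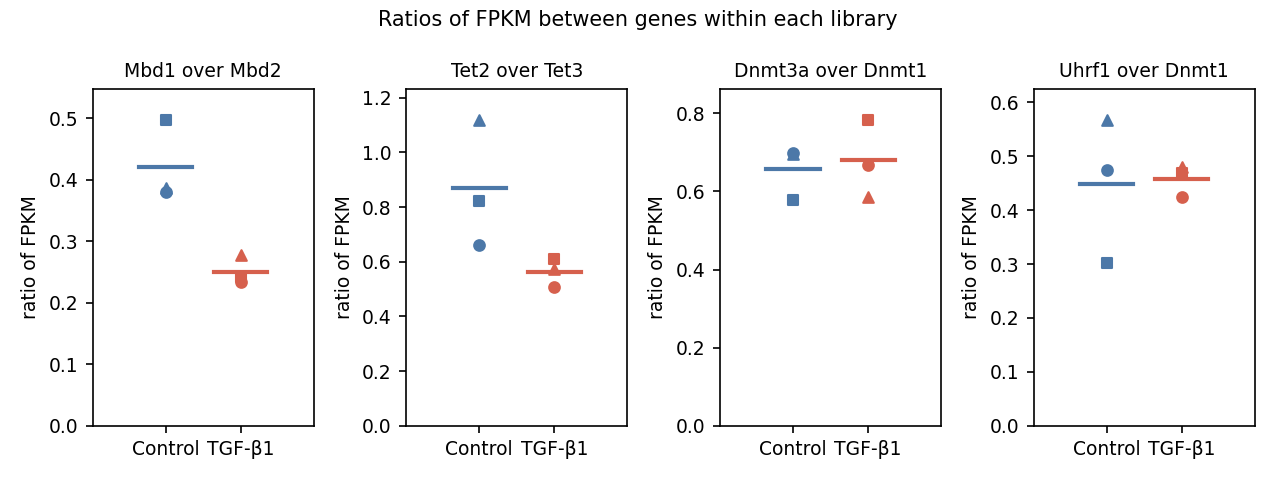
FPKM ratios of Mbd1 to Mbd2, Tet2 to Tet3, Dnmt3a to Dnmt1 and Uhrf1 to Dnmt1 in each library, on axes that start at 0, Control in blue and TGF-β1 in red, with circles, squares and triangles for replicates 1, 2 and 3 and a bar at the group mean. The Mbd1 to Mbd2 ratio (0.381 to 0.498 against 0.233 to 0.277) and the Tet2 to Tet3 ratio (0.662 to 1.12 against 0.506 to 0.611) separate the groups, while both ratios to Dnmt1 overlap.

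Genes that act with these enzymes were read from lists of companions. Among 14 partners and guides of the writers, 12 were tested and 2 were called, both lower, with a median log2 change of -0.24. This is below the 23.6% of all tested rows called lower. Zfp57, a zinc finger protein that protects methylation at imprinted regions, went from 46.6 ± 8.30 to 29.7 ± 3.00 FPKM (SD, n = 3 each), a log2 change of -0.62 with an adjusted p of 0.0134. Ehmt1, a histone H3 lysine methyltransferase, went from 24.5, 25.2 and 25.7 FPKM in Control to 19.7, 19.9 and 17.7 in TGF-β1 (log2 change -0.38, adjusted p = 0.00838). The other 10 were not called. Without TGF-β1 2 the list had 5 called genes.

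Companions of demethylation moved in both directions. Of 19 with a row, 17 were tested, 6 rose and 7 fell, against the 48.1% called over all tested rows. Gadd45a, a stress-induced protein linked to repair-based demethylation, rose from 23.4, 16.4 and 25.4 FPKM in Control to 246, 229 and 226 in TGF-β1 (log2 change 3.39, adjusted p = 3.34e-05). Apobec1, an RNA-editing cytidine deaminase, rose from 0.964 to 8.42 FPKM (2.26, adjusted p = 2.52e-05). Idh2, the mitochondrial enzyme that makes 2-oxoglutarate, fell from 180.8 to 59.9 FPKM (-1.57, adjusted p = 2.19e-04). Cxxc4, a CXXC protein that binds Tet2, fell from 3.50 to 1.09 FPKM (-1.11, adjusted p = 0.00244). Other members, named after their values were seen, were Tdg, the glycosylase that removes formyl- and carboxylcytosine, which rose from 18.0 to 30.2 FPKM (0.72, adjusted p = 0.00126), and Idh1, the cytosolic counterpart of Idh2, which rose from 42.4 to 68.3 FPKM (0.68, adjusted p = 0.00414). Ogt, the O-GlcNAc transferase that binds Tet proteins, was also named this way and fell from 63.7 to 40.8 FPKM (-0.64, adjusted p = 0.00275). Gadd45g, also named after its values were seen, was lowest in the replicate 2 library of each group. It held 19.9 FPKM in TGF-β1 2 against 98.1 and 104 in TGF-β1 1 and 3, and was not called.

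**Figure D4:**
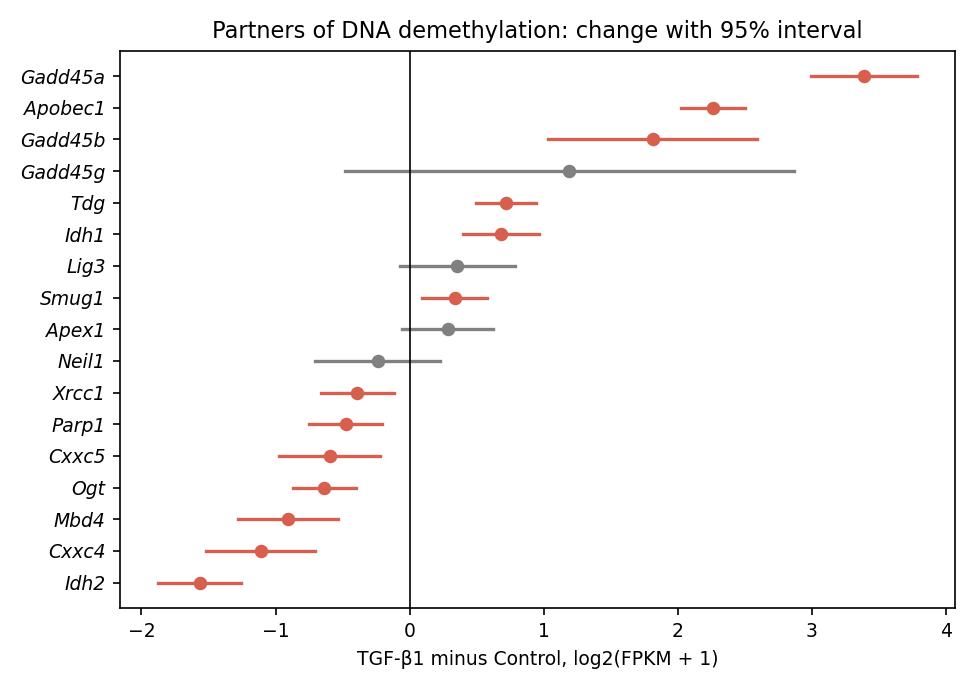
Log2 change (TGF-β1 minus Control, log2(FPKM + 1)) of the demethylation companions with 95% intervals, ordered by size, with called genes in red. Gadd45a (3.39) stands at the top and Idh2 (-1.57) at the bottom.

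Of 10 genes listed as other methyl-CpG readers, all tested, 2 rose and 3 fell (median log2 change -0.31). This share was near the 48.1% called over all tested rows. Being on the list does not mean that each protein binds methylated CG. Zbtb38, a zinc finger reader, rose from 8.52 to 17.9 FPKM (0.99, adjusted p = 7.06e-04), and Zbtb33, known as Kaiso, rose from 2.19 to 3.46 FPKM (0.49, adjusted p = 0.0256). Mbd4, a reader that is also a mismatch glycosylase, fell from 3.95 to 1.65 FPKM (-0.91, adjusted p = 0.00399), and Mbd6 fell from 41.0 to 23.9 FPKM (-0.77, adjusted p = 0.00976). The third that fell, Zbtb4, was named after its values were seen and went from 12.3 to 7.98 FPKM. Mbd3, a NuRD subunit of the same family as Mbd2, had a log2 change of -0.35 with an adjusted p of 0.141. Of 11 subunits of NuRD, the complex Mbd2 recruits, 3 rose and 0 fell, below the 48.1% called over all tested rows. Among them were Gatad2b, from 2.69 to 4.90 FPKM (0.69, adjusted p = 0.0120), and the deacetylase Hdac2, from 112 to 146 FPKM (0.39, adjusted p = 0.0460). The third was the histone-binding subunit Rbbp7, named after its values were seen, at 95.4 FPKM in Control and 123 in TGF-β1. Without TGF-β1 1, or without TGF-β1 3, the NuRD list had 1 called gene.

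Genes of the S-adenosylmethionine cycle supply the methyl donor. Of 11, 7 were tested, 2 rose and 1 fell, near the 48.1% called over all tested rows. Mat2a, which makes the donor, rose from 38.8 to 59.7 FPKM (0.61, adjusted p = 0.00332), and Ahcy, which clears the by-product, rose from 13.8 to 20.1 FPKM (0.52, adjusted p = 0.00193). Cbs, which draws homocysteine out of the cycle, fell from 9.05 to 0.519 FPKM (-2.72, adjusted p = 6.65e-05). Gnmt and Bhmt2, which use the donor or remake methionine and were named after their values were seen, fell in the fit without the filter. Gnmt held 0.495, 1.38 and 0.943 FPKM in Control and 0.221 in TGF-β1 3, and was listed at 0 in TGF-β1 1 and 2 (adjusted p = 0.0187). Bhmt2 went from 0.429 to 0.209 FPKM (adjusted p = 0.0258). Dnmt1 and Uhrf1 levels can move with the share of cycling cells, and 21 S-phase and proliferation genes were tested for that reason. Of these, 2 rose and 4 fell, below the 48.1% called over all tested rows, with a median log2 change of -0.03 and summed levels that overlapped (169.6 to 187.6 FPKM in Control, 177.2 to 211.4 in TGF-β1). Tyms and Mcm2 rose (0.81 and 0.44, adjusted p = 0.00891 and 0.00512), while Tk1 and Mcm5 fell (-0.98 and -0.70, adjusted p = 0.00655 and 0.00592). The other 2 that fell, Top2a and Birc5, were named after their values were seen. Mki67, under the filter, fell from 1.05 to 0.514 FPKM (adjusted p = 0.0231 in the fit without it).

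Germline genes are a common readout of lost promoter methylation. Of 20 listed, 8 had a row and 12 had none. None reached the filter, and 0 were called by limma without it, with 0 at an unadjusted p under 0.05. In that fit 6026 of all 19730 rows were called. With 12 genes missing and the rest this low, the list cannot tell whether promoter methylation was lost. Their summed level was 1.20 to 1.84 FPKM in Control and 1.25 to 1.63 in TGF-β1. The values of 1 gene, Ddx4, did not overlap and were higher with TGF-β1 (0.0704 to 0.1055 FPKM against 0.1063 to 0.1437). It was not called, and at these levels the depth leaves a wide error.

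Across the 6 libraries, the companion and marker genes most like Mbd1 by Pearson's r of log2(FPKM + 1), out of 87 candidates, were Idh2 (0.993), Csf1r (0.989) and Cbs (0.988), all lower with TGF-β1. For Mbd2 they were Setdb2 (0.759), Mat2b (0.729) and Mcm6 (0.626). These r values describe 6 points that fall into 2 treatment groups and share their libraries, and they carry no test.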

How the data were processed

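RNA-Seq of 3 Control and 3 TGF-β1 libraries was used. Per the study's methods and the submitters' processing notes, the authors mapped reads to mm9 with TopHat (TopHat2 2.0.11 in those notes) and estimated FPKM with Cufflinks, and the deposited values are FPKM with 1 column per library. No further scaling between libraries is stated. The authors' own test used a count model. Counts were not used here, so limma 3.58.1 in R 4.3.3 (lmFit, eBayes with a mean-variance trend, two-sided) was run on log2(FPKM + 1) for rows averaging at least 1 FPKM, with Benjamini-Hochberg adjustment and a threshold of 0.05. The script was tested on simulated data. Depth came from whole-fragment steps of low values, whole within 0.1 fragment, assuming 200 nt fragments. FPKM with an assumed length cannot return exact counts, so no count model was run.

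Each library's group and number were read from its label. Positions are from GENCODE M1 on mm9, in which 19699 of 19730 rows were found. Promoter windows are RefSeq, GRCm38.p6, and were read for 7 of the 9 genes. Windows of the genes on chromosome 18, Mbd1 and Mbd2, were left out, so those genes were not searched.

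The genes and the 12 companion lists were chosen with earlier results of these data known. Named are all 9 genes, the 2 largest increases and 2 largest decreases among called genes of each list, tested members of lists with 5 or fewer, and for Mbd1 and Mbd2 the 3 most similar list genes. Alternatives covered pseudocounts, filters, scalings, the model, a replicate block and leaving out each library. Of these, 2 were chosen after the data were seen (testing protein-coding rows of at least 300 nt alone, and rescaling to their summed FPKM). Python 3.11.15, numpy 2.4.6, pandas 2.3.3 and matplotlib 3.10.9 were also used.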

Additional observations from a re-analysis of the deposited data

How the results depend on the processing

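Mbd1 was the only one of the 9 genes called under every alternative run. Of the 7 genes past the filter of 1 FPKM, 2 were called in the reported fit. The number was 1 with quantile normalization, with replicates 1 and 3 alone and at an adjusted p under 0.01. It was 5 after rescaling to protein-coding rows, and 1 to 2 when 1 library was left out. A filter of at least 3 FPKM also gave 1, but it left Tet2 (mean 2.61 FPKM) untested. With no filter all 9 were tested and 2 were called, Mbd1 and Tet1. Of all tested genes, 3672 were called at an adjusted p under 0.01 and 4419 to 5446 with 1 library left out, against 5721. Quantile normalization reversed the sign of Dnmt3a (0.0035), Uhrf1 (0.064) and Tet3 (0.0011), none called. With 1 library left out, Uhrf1 ran from -0.225 without Control 2 to 0.0217 without Control 3, and Mbd2 from -0.107 without Control 2 to 0.0323 without Control 1, with 0.0156 without TGF-β1 3. Rescaling to protein-coding rows put the Dnmt sum at 13.3 FPKM in Control and 9.69 in TGF-β1, and the Tet sum at 5.02 in TGF-β1.

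Among the lists, the writer partners had 4 called genes with upper-quartile scaling, quantile normalization, the replicate block, replicate 2 as a batch term or replicates 1 and 3 alone, 6 after rescaling to protein-coding rows, 1 at an adjusted p under 0.01 and 2 to 5 with 1 library left out. Other readers had 3 with the filter of at least 3 FPKM and with replicates 1 and 3 alone. NuRD subunits had 1 with replicates 1 and 3 alone, 0 at an adjusted p under 0.01 and 1 to 4 with 1 library left out. The methyl donor cycle had 5 and the tubular markers 2 with no filter, and the podocyte markers had 1 at an adjusted p under 0.01. The causes were not tested.

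The labels number the replicates 1 to 3 in each group. Same-numbered libraries correlated at 0.0921, 0.232 and 0.0853, but Control 1 correlated best with TGF-β1 3 (0.117). The numbers were therefore not taken to pair the libraries. Each replicate 2 library correlated negatively with replicates 1 and 3 of the other group (-0.194 to -0.0635). Deviations from a group mean cancel within the group. The positive correlation between the replicate 2 libraries therefore makes their other correlations negative on balance, and these are not a separate observation. What the replicate 2 libraries share was not tested. With replicate 2 as a batch term, Mbd1 and Tet2 stayed called. With the replicate block, 5391 genes were called, Mbd1 and Tet2 among them. Tet1 had an adjusted p of 0.0574 in that fit without the filter. At this depth Tet1 and Dnmt3b rest on few fragments.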
